A study of Mus musculus with 15 samples.

Results

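Plasma cell transcription factors are the regulators that turn a B cell into an antibody-secreting cell and equip it for secretion. 7 of them are described here: Irf4, Pou2af1, Prdm1, Xbp1, Creb3l2, Bhlha15 and Zbtb32. They were picked by name, with earlier results of these data known, out of 31265 genes with a value on the arrays. The gene lists used below were chosen likewise, so shares of all genes stand beside the counts as a description only. Of the 580146 rows that carry 1 gene symbol and belong to a gene with a value, 135 belong to the 7 factors, 85 of them exon regions and 50 of them exon-exon junctions. Creb3l2 has 38 rows, Prdm1 23, Xbp1 22, Irf4 20, Zbtb32 19, Pou2af1 10 and Bhlha15 3, and no row of theirs carries a second symbol. Throughout, a gene value is the median over the exon regions of a gene, on the log2 scale.

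The RNA came from splenic B cells of C57BL/6 mice, purified on magnetic columns. The 4 groups were ELL2 cko cells with lipopolysaccharide (LPS, 3 arrays), wild-type (WT) cells with LPS (4 arrays), ELL2 cko cells without LPS (4 arrays) and WT cells without LPS (4 arrays). ELL2 is an elongation factor of RNA polymerase II, and ELL2 cko denotes its conditional knockout, labelled ELL2 -/- cko; the Cre driver and the deleted part are not given in the sources used here. LPS, a component of bacterial outer membranes, drives B cells to divide and secrete antibody. Cells with LPS had been cultured for 72 hours, whereas cells without LPS were never cultured, so LPS and time in culture cannot be told apart. In bulk RNA, fewer cells of a type and less RNA per cell cannot be told apart either. The labels speak of isolation from each mouse but do not tie arrays to mice, so p-values measure the spread between arrays.

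Array medians over all rows lay between 5.72 and 5.78, and the medians of background control rows between 3.02 and 3.43. Ell2 averaged 14.15 ± 0.0063 in ELL2 cko cells with LPS (SD, n = 3) and 16.26 ± 0.53 in WT cells with LPS (n = 4). Without LPS it averaged 10.52 ± 0.59 in ELL2 cko and 11.03 ± 0.10 in WT (n = 4 each), where the groups overlapped. With LPS its genotype difference of -2.11 lay between those of Prdm1 (-1.97) and Xbp1 (-2.68). The Ell2 value thus cannot check the genotype label apart from a smaller LPS response, and without LPS it does not check it either. The 7 measured B cell markers lay above the median gene in all 15 arrays. Markers of other cells were also high in some arrays. The mean of 13 T cell markers was 10.76 and 10.32 in ELL2 cko replicates 1 and 2 without LPS and 6.64 and 6.89 in ELL2 cko replicates 2 and 3 with LPS. In the other 11 arrays it lay between 4.70 and 4.97. All 13 were above the median gene in those unstimulated arrays and 12 of 13 in those with LPS. The same 2 unstimulated arrays also had the highest means of 11 neutrophil markers (11.35 and 10.997, against 4.29 to 4.94 elsewhere), 9 NK cell markers (8.71 and 8.64) and 11 monocyte and macrophage markers (8.84 and 8.85). Xist, made from the inactive X chromosome of female cells, was high in 3 of 3 ELL2 cko arrays with LPS, 2 of 4 WT arrays with LPS, 3 of 4 ELL2 cko arrays without LPS and 2 of 4 WT arrays without LPS; its part in the results was not tested. Values without the 4 arrays with a high T cell marker mean, called below the arrays with markers of other cells, are given beside the results. The arrays kept are not thereby free of other cells.

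**Figure D1:**
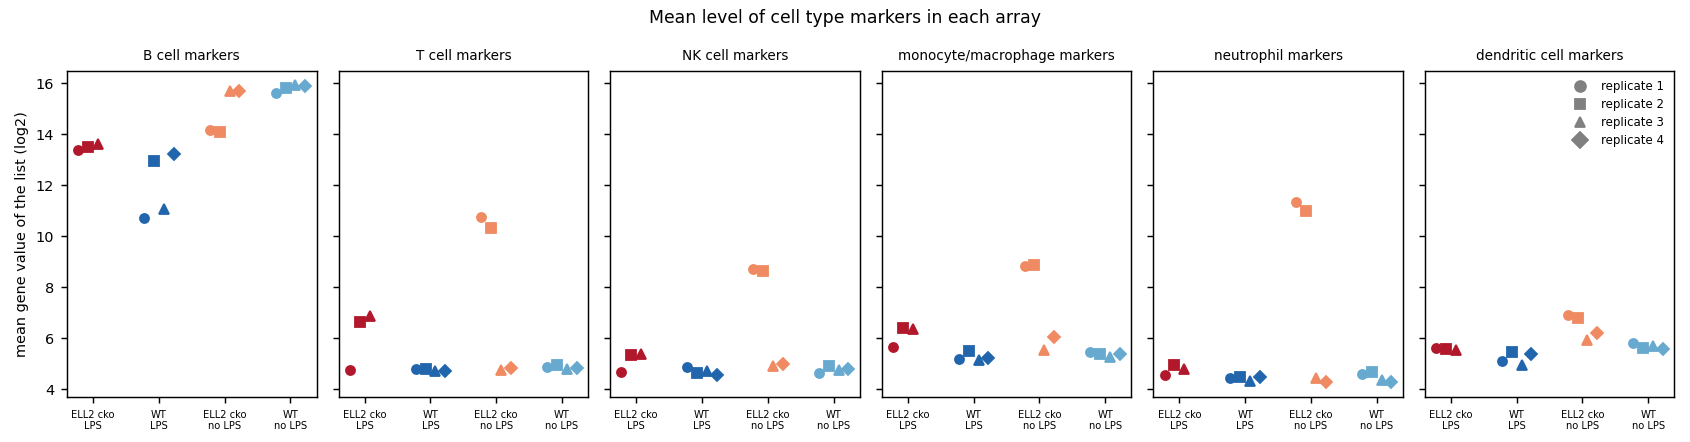
Mean log2 gene value of 6 lists of cell type markers (vertical axis) in each of the 15 arrays, by group (horizontal axis) and replicate (symbol). T cell markers reach 10.76 and 10.32 in ELL2 cko replicates 1 and 2 without LPS, and B cell markers are lowest, at 10.73 and 11.07, in WT replicates 1 and 3 with LPS.

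These factors act in a known order. Irf4 and the coactivator Pou2af1 are already active in B cells, and rising Irf4 switches on Prdm1, whose product Blimp-1 shuts off the B cell programme. Xbp1, which needs an unconventional splicing step in the cytoplasm to become active, then expands the endoplasmic reticulum (ER), and Bhlha15 (MIST1) and Creb3l2 (BBF2H7) are regulators of secretory cells that act in that phase. Zbtb32 is a zinc finger repressor that works together with Blimp-1 on shared target genes.

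The promoter windows of 5 of the genes are shown: those of Xbp1, Creb3l2 and Bhlha15, the regulators of secretion whose LPS change differed between the genotypes, and those of Pou2af1 and Zbtb32, for which no genotype difference passed the test. All 7 genes matched the RefSeq table (GRCm38.p6), with 8 windows, each holding 250 bases before to 50 bases after an annotated start; Zbtb32 has 2 windows, of which the upstream one is shown. The windows lie at chr11:5520391-5520690 on the plus strand for Xbp1, chr6:37442099-37442398 on the minus strand for Creb3l2, chr5:144190036-144190335 on the plus strand for Bhlha15, chr9:51213440-51213739 on the plus strand for Pou2af1 and chr7:30598860-30599159 on the minus strand for Zbtb32. Each is written 5′ to 3′ on the strand of the gene, and capitals mark matches, on either strand, to the motifs spelled out in the next paragraph.
Xbp1: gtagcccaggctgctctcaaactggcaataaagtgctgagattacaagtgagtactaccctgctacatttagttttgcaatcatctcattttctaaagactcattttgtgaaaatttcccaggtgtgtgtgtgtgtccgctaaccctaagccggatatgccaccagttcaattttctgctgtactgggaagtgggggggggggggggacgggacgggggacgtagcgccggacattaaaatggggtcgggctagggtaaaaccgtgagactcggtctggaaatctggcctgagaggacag
Creb3l2: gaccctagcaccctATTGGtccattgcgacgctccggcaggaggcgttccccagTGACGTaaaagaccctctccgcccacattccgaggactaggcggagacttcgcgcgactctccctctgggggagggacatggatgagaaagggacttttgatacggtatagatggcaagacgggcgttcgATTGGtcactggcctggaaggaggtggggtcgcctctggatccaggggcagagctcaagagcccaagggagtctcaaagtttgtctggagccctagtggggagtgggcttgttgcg
Bhlha15: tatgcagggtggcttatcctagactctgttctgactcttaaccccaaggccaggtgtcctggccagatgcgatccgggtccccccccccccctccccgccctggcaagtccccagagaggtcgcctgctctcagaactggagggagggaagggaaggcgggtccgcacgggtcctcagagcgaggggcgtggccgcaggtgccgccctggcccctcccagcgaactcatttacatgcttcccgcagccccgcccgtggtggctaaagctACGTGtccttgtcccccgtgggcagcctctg
Pou2af1: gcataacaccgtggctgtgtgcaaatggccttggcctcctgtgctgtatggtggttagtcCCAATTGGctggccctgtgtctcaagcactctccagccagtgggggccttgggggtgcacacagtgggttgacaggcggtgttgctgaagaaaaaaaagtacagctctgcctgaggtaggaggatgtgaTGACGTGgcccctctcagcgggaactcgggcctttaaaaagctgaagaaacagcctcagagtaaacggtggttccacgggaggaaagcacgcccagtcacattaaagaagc
Zbtb32: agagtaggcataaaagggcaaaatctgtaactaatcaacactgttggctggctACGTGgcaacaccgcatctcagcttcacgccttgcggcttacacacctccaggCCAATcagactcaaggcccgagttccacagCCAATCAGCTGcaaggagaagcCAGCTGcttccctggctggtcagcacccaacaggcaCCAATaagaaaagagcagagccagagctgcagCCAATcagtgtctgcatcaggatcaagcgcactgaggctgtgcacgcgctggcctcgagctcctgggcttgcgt

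The motifs were chosen with these sequences in view, and a match is a description only. TGACGTG, the core to which XBP1 and ATF6 bind, occurs in the Pou2af1 window at position -61 from the start and in 2.01% of 32851 windows of the same length. Its shorter form TGACGT, the core of CREB-type factors, occurs in the Creb3l2 window at position -196 and in 7.51% of all windows. The longer form also counts as the shorter one, and as the next motif. ACGTG lies at position 19 in the Bhlha15 window and at -197 in that of Zbtb32, and 19.6% of all windows hold it. CCAAT, the box of NF-Y, occurs 4 times in the Zbtb32 window, 2 times each in those of Pou2af1 (overlapping, on opposite strands) and Creb3l2, and in 37.4% of windows. CAGCTG, an E-box that MIST1 can bind, occurs 2 times in the Zbtb32 window, once directly after a CCAAT box, and in 16.3% of windows. The windows of Xbp1 and Irf4 hold no match to any motif searched, and that of Prdm1 holds 1 CCAAT. None of the 8 windows holds the octamer ATGCAAAT (1.74% of all windows) or the Blimp-1 core AGNGAAAG (8.63%). These letters being absent from a window says nothing of the factor.

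With LPS all 7 factors were higher in both genotypes. In ELL2 cko cells 7 of 7 passed the test, where 6.37% of all genes were called higher, and in WT cells 7 of 7 did, where 13.9% were. A call is an adjusted p under 0.05 in a limma model fitted to all 31265 genes and 15 arrays, with Benjamini-Hochberg adjustment. The median change of the 7 was 2.60 log2 units in ELL2 cko and 6.02 in WT, while the median over all genes was 0.04 and 0.03. With LPS, 5 of the 7 were lower in ELL2 cko than in WT, against 3.3% of all genes; the median difference of the 7 was -1.66, and that over all genes 0.02. Without LPS, 0 of 7 differed between the genotypes.

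**Figure D2:**
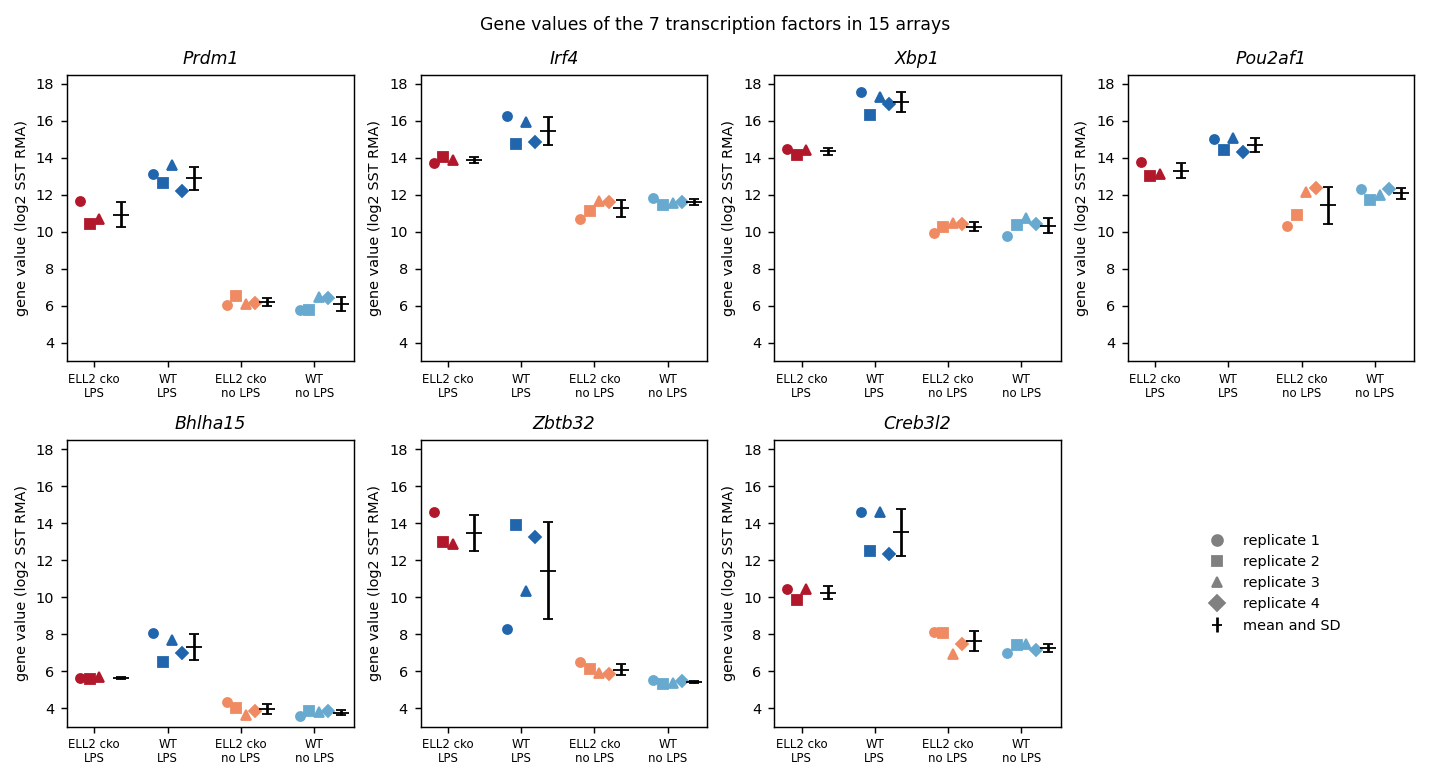
Gene value (log2 SST RMA, vertical axis) of each transcription factor in the 15 arrays, by group (horizontal axis) and replicate (symbol); the bar beside each group is its mean with SD. Xbp1 lies between 14.13 and 14.48 in ELL2 cko cells with LPS and between 16.30 and 17.58 in WT cells with LPS, while Zbtb32 spreads from 8.26 to 13.89 in WT cells with LPS.

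Irf4, whose rising level commits B cells to the plasma cell fate, had values of 13.70, 14.03 and 13.91 in ELL2 cko cells with LPS and 16.24, 14.76, 15.95 and 14.87 in WT cells with LPS. Its values without LPS were 10.69, 11.13, 11.67 and 11.61 in ELL2 cko and 11.82, 11.46, 11.54 and 11.63 in WT. All ELL2 cko arrays with LPS lay below all WT arrays with LPS, and the unstimulated groups overlapped. LPS raised Irf4 by 2.60 ± 0.33 in ELL2 cko (log2 change ± SE, limma adjusted p = 1.98e-04) and by 3.84 ± 0.30 in WT (adjusted p = 4.57e-07). With LPS it was lower in ELL2 cko (-1.58 ± 0.33, adjusted p = 0.0129), a call lost without ELL2 cko LPS replicate 3 (adjusted p = 0.0564). The LPS changes themselves differed by -1.24 ± 0.45, which did not pass the test (adjusted p = 0.225, 95% interval -2.20 to -0.28).

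Pou2af1, a coactivator that the octamer factors recruit to immunoglobulin genes, had values of 13.77, 12.996 and 13.14 in ELL2 cko cells with LPS and 15.03, 14.43, 15.05 and 14.31 in WT cells with LPS. Without LPS they were 10.30, 10.89, 12.12 and 12.37 in ELL2 cko and 12.30, 11.69, 11.98 and 12.31 in WT. The 2 low unstimulated values belong to the ELL2 cko arrays with T cell and neutrophil markers, whose B cell marker means were 14.15 and 14.10, against 15.69 and 15.70 in replicates 3 and 4; the part of other cells in these values was not tested. Pou2af1 rose with LPS by 1.88 ± 0.41 in ELL2 cko (adjusted p = 0.00994, but 0.0718 with only the groups compared) and by 2.63 ± 0.38 in WT (adjusted p = 1.35e-04). With LPS all ELL2 cko arrays lay below all WT arrays, but the difference of -1.40 ± 0.41 did not pass the test (limma adjusted p = 0.0728, 95% interval -2.29 to -0.52). It passed in 2 of 7 other settings, with only the groups compared (adjusted p = 0.0475) and with a filter on dim genes (adjusted p = 0.0408), and in 2 of the 15 fits that leave out 1 array. The difference of the LPS changes was -0.76 ± 0.56 (adjusted p = 0.648, 95% interval -1.97 to 0.45).

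Prdm1, which encodes the repressor Blimp-1, had values of 11.67, 10.41 and 10.70 in ELL2 cko cells with LPS and 13.12, 12.65, 13.63 and 12.18 in WT cells with LPS. Its values without LPS were 6.02, 6.55, 6.12 and 6.17 in ELL2 cko and 5.77, 5.77, 6.47 and 6.40 in WT. The LPS groups did not overlap, and every unstimulated array lay over 3 log2 units below every array with LPS. Its rise was 4.71 ± 0.34 in ELL2 cko (adjusted p = 6.21e-06) and 6.79 ± 0.31 in WT (adjusted p = 7.74e-09). With LPS it was lower in ELL2 cko by 1.97 (-1.97 ± 0.34, limma adjusted p = 0.00420). The rise was smaller in ELL2 cko (difference -2.08 ± 0.46, adjusted p = 0.0438), a call kept in 3 of the 15 fits that leave out 1 array. ELL2 cko replicate 1, the LPS array without a high T cell marker mean, had the highest Prdm1 of its group.

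Xbp1, the regulator of the secretory apparatus, had values of 14.48, 14.13 and 14.41 in ELL2 cko cells with LPS and 17.58, 16.30, 17.31 and 16.92 in WT cells with LPS. Without LPS its values were 9.92, 10.27, 10.47 and 10.41 in ELL2 cko and 9.78, 10.38, 10.75 and 10.42 in WT. The 3 ELL2 cko arrays with LPS lay close together, below every WT array with LPS. LPS raised Xbp1 by 4.07 ± 0.27 in ELL2 cko (adjusted p = 6.21e-06) and by 6.70 ± 0.25 in WT (adjusted p = 4.50e-09). It was lower in ELL2 cko with LPS (-2.68 ± 0.27, limma adjusted p = 1.35e-04). Its rise was smaller in ELL2 cko (difference -2.62 ± 0.37, adjusted p = 0.00722), and this call held in all 15 fits that leave out 1 array.

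Creb3l2, an ER-anchored factor released by Golgi proteases that drives genes of vesicle coats in cartilage cells, had values of 10.45, 9.82 and 10.44 in ELL2 cko cells with LPS and 14.61, 12.46, 14.60 and 12.34 in WT cells with LPS. Without LPS it had 8.10, 8.05, 6.93 and 7.48 in ELL2 cko and 6.997, 7.40, 7.45 and 7.12 in WT. The LPS groups did not overlap, and the WT group held a pair of high and a pair of lower arrays. The rise was 2.60 ± 0.51 in ELL2 cko (adjusted p = 0.00480) and 6.26 ± 0.47 in WT (adjusted p = 3.19e-07). With LPS Creb3l2 was lower in ELL2 cko (-3.26 ± 0.51, limma adjusted p = 0.00219), the largest genotype difference of the 7 with all arrays; without the 4 arrays it was -3.05, and that of Zbtb32 was 3.17. The LPS changes differed by -3.66 ± 0.70 (adjusted p = 0.0214), a call kept in 12 of the 15 fits that leave out 1 array.

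Bhlha15 encodes MIST1, a basic helix-loop-helix factor of secretory cells. Its values were 5.63, 5.55 and 5.69 in ELL2 cko cells with LPS and 8.03, 6.47, 7.65 and 6.99 in WT cells with LPS. Without LPS they were 4.32, 3.99, 3.65 and 3.85 in ELL2 cko and 3.59, 3.83, 3.77 and 3.83 in WT. Unstimulated cells thus lay below the median gene (5.05 to 5.23 over the 15 arrays). The rise was 1.67 ± 0.28 in ELL2 cko (adjusted p = 0.00153) and 3.53 ± 0.26 in WT (adjusted p = 2.25e-07). With LPS it was lower in ELL2 cko (-1.66 ± 0.28, limma adjusted p = 0.00343). The LPS changes differed by -1.86 ± 0.38 (adjusted p = 0.0310), a call kept in 6 of the 15 fits that leave out 1 array. The gene value averages 2 exon regions that behave differently. PSR0500016137.mm.1 had 9.16, 8.97 and 9.25 in ELL2 cko with LPS and 13.82, 10.71, 12.70 and 11.63 in WT with LPS, against 5.18 to 6.42 in ELL2 cko and 5.07 to 5.61 in WT without LPS. PSR0500016135.mm.1 stayed between 2.06 and 2.61 in all 15 arrays.

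Zbtb32, the partner of Blimp-1, was the only one of the 7 with a higher mean in ELL2 cko than in WT with LPS, and that difference did not pass the test. It had values of 14.60, 12.95 and 12.85 in ELL2 cko cells with LPS and 8.26, 13.89, 10.32 and 13.26 in WT cells with LPS. Without LPS it had 6.48, 6.09, 5.89 and 5.81 in ELL2 cko and 5.501, 5.32, 5.37 and 5.44 in WT. The highest ELL2 cko value belongs to replicate 1, the LPS array whose T cell marker mean was 4.74; the part of other cells was not tested. The WT arrays with LPS spread over more than 5 log2 units and overlapped the ELL2 cko arrays. Without LPS all ELL2 cko arrays lay above all WT arrays, as for 2.86% of all genes, with a difference of 0.66 ± 0.90 (limma adjusted p = 0.892). LPS raised Zbtb32 by 7.40 ± 0.98 in ELL2 cko (adjusted p = 2.73e-04), the second largest change of any gene there, and by 6.02 ± 0.90 in WT (adjusted p = 1.73e-04). The genotype difference with LPS of 2.04 ± 0.98 did not pass the test (adjusted p = 0.310, 95% interval -0.06 to 4.13), nor did the difference of the LPS changes (1.37 ± 1.33, adjusted p = 0.752, 95% interval -1.47 to 4.22).

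**Figure D3:**
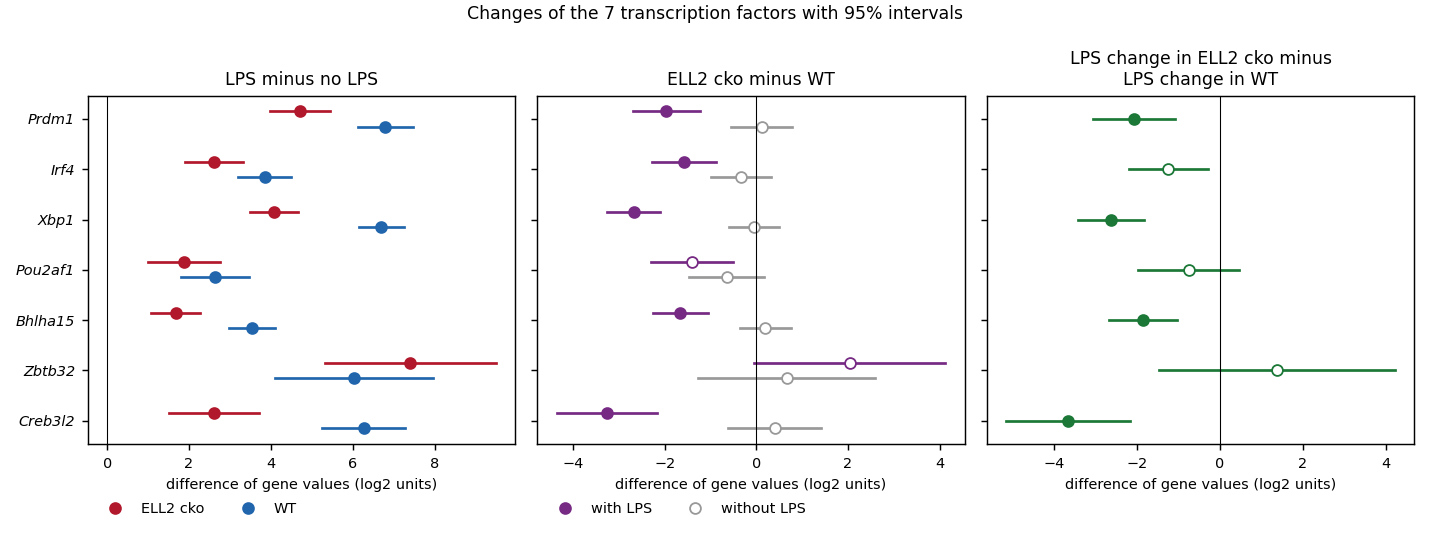
Log2 differences of the 7 gene values (horizontal axis, point) with 95% intervals (line): LPS minus no LPS in each genotype, ELL2 cko minus WT with and without LPS, and the LPS change in ELL2 cko minus that in WT. Filled points passed the test at an adjusted p under 0.05; Creb3l2 has the lowest difference of the LPS changes, at -3.66, and Zbtb32 is the only one of the 7 above 0 there, at 1.37.

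Between genotypes without LPS, the 7 differences lay between -0.65 and 0.66, and 0 were called by limma, with 0 of 7 also at an unadjusted p under 0.05. Over all genes 0.0128% were called and 2820 had an unadjusted p under 0.05. The 95% intervals of the differences run from -0.61 to 0.48 for Xbp1 and from -0.56 to 0.78 for Prdm1, so larger differences than these are outside the intervals, while that of Zbtb32 runs from -1.28 to 2.60. Of the 4 ELL2 cko arrays here, 2 carry markers of other cells, and without them the differences were 0.18 for Pou2af1 (-0.65 with all arrays), 0.03 for Irf4 (-0.34), 0.11 for Xbp1 (-0.06), -0.04 for Creb3l2 (0.39), -0.0063 for Bhlha15 (0.20), 0.04 for Prdm1 (0.11) and 0.45 for Zbtb32 (0.66). The sign turned for 5 of the 7, and 0 of 7 were called by limma in either fit. With LPS, 6 of the 7 had all ELL2 cko arrays below all WT arrays, as had 7.66% of all genes. The LPS change was smaller in ELL2 cko for 4 of the 7 (Prdm1, Xbp1, Bhlha15 and Creb3l2), against 1.19% of all genes called lower. Both of these comparisons use the same arrays with LPS.

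Without the 4 ELL2 cko arrays with markers of other cells, 1 ELL2 cko array with LPS and 2 without were left, and the lone array is assumed to vary like the other groups. With 1 array in a group, this fit cannot decide which calls hold, and effect sizes are given here. The LPS change in ELL2 cko was then 5.53 for Prdm1, 4.04 for Xbp1, 8.74 for Zbtb32 and 3.25 for Creb3l2. It was 2.05 for Irf4, 1.88 for Bhlha15 and 1.52 for Pou2af1. The genotype differences with LPS were -2.55 for Xbp1, -3.05 for Creb3l2, -1.65 for Bhlha15, -1.76 for Irf4, -1.22 for Prdm1, -0.94 for Pou2af1 and 3.17 for Zbtb32. All kept the sign they had with all arrays. The difference of the LPS changes was -1.26 for Prdm1 (-2.08 with all arrays), -2.66 for Xbp1, -3.01 for Creb3l2 and -1.65 for Bhlha15. It was -1.79 for Irf4 (-1.24 with all arrays), -1.12 for Pou2af1 (-0.76) and 2.72 for Zbtb32 (1.37).

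**Figure D4:**
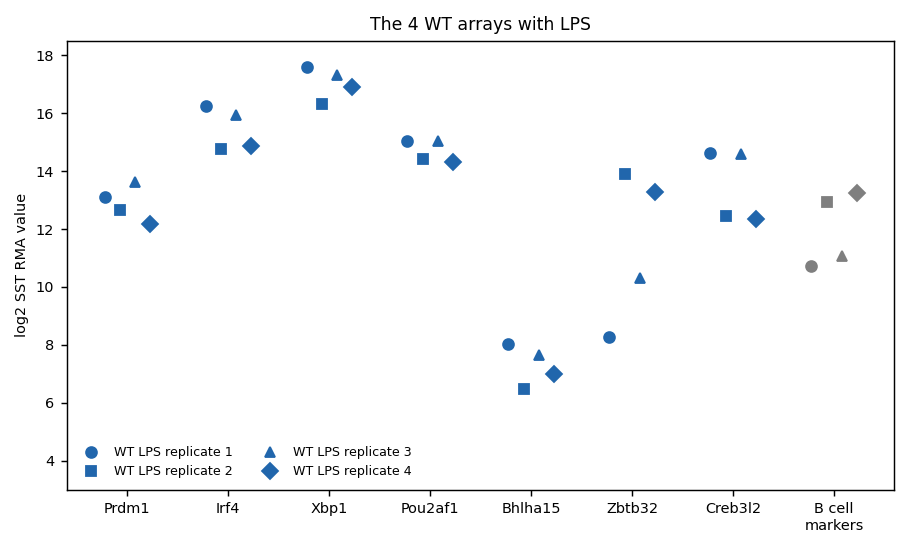
Log2 values (vertical axis) of the 7 factors and the mean of 7 B cell markers (horizontal axis) in the 4 WT arrays with LPS, by replicate (symbol). Replicates 1 and 3 have Creb3l2 at 14.61 and 14.60 and Zbtb32 at 8.26 and 10.32, and replicates 2 and 4 have Creb3l2 at 12.46 and 12.34 and Zbtb32 at 13.89 and 13.26.

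The 4 WT arrays with LPS differed among themselves. All of Irf4, Pou2af1, Prdm1, Xbp1, Creb3l2 and Bhlha15 were higher in replicates 1 and 3 than in replicates 2 and 4, and Zbtb32 was lower there. The B cell marker mean was 10.73 and 11.07 in replicates 1 and 3, and 12.94 and 13.24 in replicates 2 and 4. In ELL2 cko cells with LPS it was 13.40, 13.49 and 13.61. These arrays were not regrouped, and the part of this spread in the genotype differences was not tested.

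Exon regions and junctions were compared with their gene through the splicing index, the value of a row minus its gene value in the same array. Level changes first: with LPS, ELL2 cko was lower than WT in 22 of 22 rows of Xbp1, 20 of 20 of Irf4, 10 of 10 of Pou2af1, 22 of 23 of Prdm1, 37 of 38 of Creb3l2 and 2 of 3 of Bhlha15, and higher in 18 of 19 rows of Zbtb32. Rows of a gene share its transcripts and are not replicates. In ELL2 cko, 38 of 135 rows changed otherwise than their gene with LPS (11 higher and 27 lower), against 1.34% of all rows (0.707% higher and 0.632% lower). In WT, 70 did (21 higher and 49 lower), against 10.9% of all rows (5.79% higher and 5.08% lower). Part of these were dim rows: 13 of the 27 called lower in ELL2 cko and 15 of the 49 in WT had means at or under the median row (6.02) with and without LPS. In a gene that rises, a row that does not respond falls in index by the rise itself. The shares over all rows cover all genes, most of them not called with LPS, and are not a matched baseline. The Bhlha15 gene value is the midpoint of its 2 exon regions. Their indices mirror each other by construction, and both were called with LPS in each genotype.

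**Figure D5:**
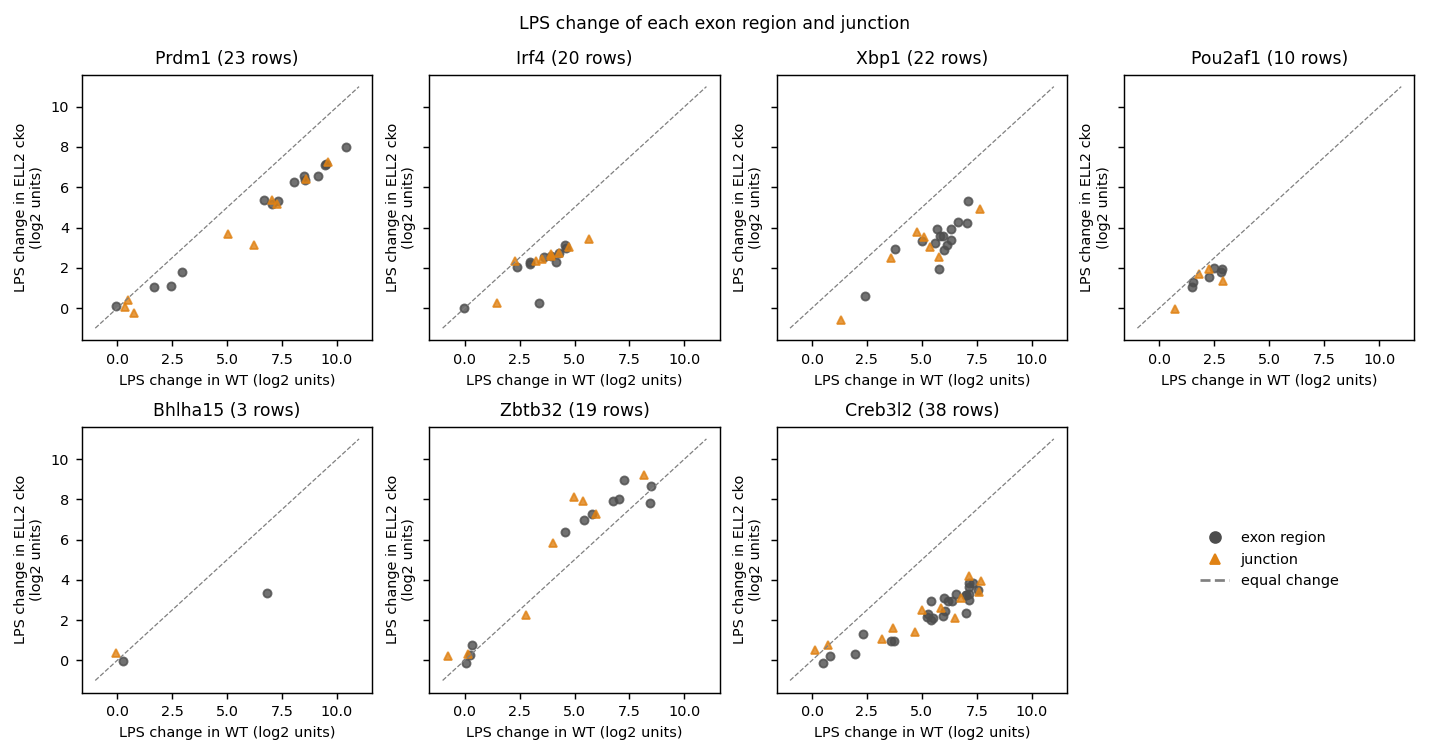
LPS change of each exon region (circle) and junction (triangle) of the 7 factors in ELL2 cko (vertical axis, log2 units) against that in WT (horizontal axis, log2 units); the dashed line marks equal change. Rows of Xbp1, Irf4 and Creb3l2 lie mostly below the line, and most rows of Zbtb32 lie above it.

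Examples of dim rows are PSR1000014929.mm.1 of Prdm1, which lay between 5.498 and 5.75 in ELL2 cko and between 5.21 and 5.98 in WT with LPS, and PSR1300002054.mm.1 of Irf4, between 2.92 and 3.86 in ELL2 cko and between 3.42 and 3.73 in WT with LPS. Bright rows also differed from their gene. Xbp1 junction JUC1100000392.mm.1 had 10.60, 10.56 and 10.63 in ELL2 cko with LPS and 12.53, 11.79, 12.62 and 11.68 in WT with LPS. Without LPS it had 12.64, 11.54, 10.51 and 10.07 in ELL2 cko and 11.36, 10.49, 10.56 and 10.85 in WT. The values of 12.64 and 11.54 belong to the unstimulated arrays with T cell and neutrophil markers. The part of other cells in the change of this junction was not tested. Its splicing index fell by 4.67 with LPS in ELL2 cko (limma adjusted p = 0.00117) and by 5.35 in WT (adjusted p = 2.25e-05). Row positions were not used here, so whether a row spans the stretch that the IRE1 nuclease removes from Xbp1 is not known.

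Between genotypes with LPS, 7 of 135 rows differed in splicing index, 7 higher and 0 lower in ELL2 cko. The share over all rows, again not a matched baseline, was 0.273% (0.138% higher and 0.135% lower). Of the 7 rows, 4 (1 of Prdm1, 1 of Bhlha15 and 2 of Creb3l2) lay at or under the median row in both groups. The other 3 belong to Xbp1 and lie near the top of the scale, whose highest value is 19.93. PSR1100000771.mm.1 had 19.04, 19.01 and 18.89 in ELL2 cko and 19.82, 19.63, 19.89 and 19.84 in WT, so its level differed less than the gene value did (splicing index 1.87 ± 0.25, limma adjusted p = 0.0107). JUC1100000388.mm.1 (1.69 ± 0.27, adjusted p = 0.0214) and PSR1100000769.mm.1 (1.21 ± 0.23, adjusted p = 0.0388) were alike. Whether values near the upper end are compressed was not tested. Without the 4 arrays no row of the 7 factors was called between genotypes with LPS.

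Most target genes of XBP1 rose with LPS, and most were lower in ELL2 cko cells with LPS. Of 21 measured genes of this list 13 rose with LPS in ELL2 cko (median 1.81) and 19 in WT (median 4.07), and none fell; of all genes 6.37% rose in ELL2 cko and 13.9% in WT. With LPS 19 of 21 were lower in ELL2 cko (median -1.98), and for 12 of 21 the rise was smaller there (median -2.28), against 3.3% and 1.19% of all genes. Fkbp11, an ER peptidyl-prolyl isomerase, rose by 3.70 ± 0.53 in ELL2 cko and by 8.66 ± 0.49 in WT (limma adjusted p of the difference = 0.00734). Edem1, which directs misfolded glycoproteins to degradation, differed by -3.36 ± 0.30 between genotypes with LPS (adjusted p = 5.60e-05), and Sel1l, an adaptor of the same pathway, by -3.28 ± 0.49 (adjusted p = 0.00144). Sec24d, a cargo adaptor of vesicles leaving the ER, rose by 2.78 ± 0.51 in ELL2 cko and by 6.09 ± 0.47 in WT. Derl2 and Syvn1 were called in none of these comparisons. Without the 4 arrays the median LPS change of the 21 XBP1 target genes in ELL2 cko was 1.63. The median genotype difference with LPS was then -1.90, with 1 of 21 called (Edem1, -2.70 ± 0.39, limma adjusted p = 0.0409), that of Sel1l was -1.89, and 0 of 21 had a called difference of the LPS changes, at a median of -2.33 (16 at an unadjusted p under 0.05).

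Genes that Blimp-1 represses fell in 3 of 11 cases in ELL2 cko (median -0.83) and in 10 of 11 in WT (median -3.00), where 3.99% and 10.6% of all genes fell. The 3 were Fcer2a, the low-affinity IgE receptor (-4.18 ± 1.09), the egress receptor S1pr1 (-1.57 ± 0.19) and the germinal centre repressor Bcl6 (-1.53 ± 0.42). In WT, Ciita, the MHC class II transactivator, fell by 5.18 ± 0.87, and the inhibitory receptor Cd22 by 4.26 ± 1.22; in ELL2 cko Ciita changed by -1.25 (limma adjusted p = 0.485) and Cd22 by 0.14 (adjusted p = 0.969). Myc was called in neither genotype. With LPS 0 of 11 differed between genotypes by limma, at a median of 1.63, and 0 of 11 had a called difference of the LPS changes, at a median of 2.64; 6 of 11 had an unadjusted p under 0.05 in each comparison. The 2 unstimulated ELL2 cko arrays with markers of other cells had Cd22 at 14.28 and 14.22 and Ciita at 12.16 and 12.03, while replicates 3 and 4 had Cd22 at 16.58 and 16.38 and Ciita at 14.01 and 13.65. Without the 4 arrays the LPS change in ELL2 cko was -0.95 for Cd22, -2.19 for Ciita and -5.15 for Fcer2a, none of them called, and -2.58 for Bcl6 and -1.30 for S1pr1. The median was then -1.30, and the median difference of the LPS changes 1.67.

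Genes characteristic of plasma cells rose in 4 of 11 cases in ELL2 cko (median 0.86) and in 10 of 11 in WT (median 5.23), against 6.37% and 13.9% of all genes. Derl3, of ER-associated degradation, rose by 4.62 ± 0.37 in ELL2 cko and by 8.21 ± 0.34 in WT, and Mzb1, a chaperone cofactor of IgM assembly, by 4.36 ± 0.42 in ELL2 cko. Txndc5, a disulfide isomerase, was lower in ELL2 cko with LPS by 3.30 (-3.30 ± 0.34, limma adjusted p = 1.37e-04), and Cd93, a surface receptor of plasma cells, by 2.97 (-2.97 ± 0.35, adjusted p = 3.28e-04). In all 7 of 11 were lower, and 4 of 11 rose less, against 3.3% and 1.19% of all genes. The list holds Ell2 itself. Without the 4 arrays the median rise in ELL2 cko was 3.02, against 0.86 with them. The count of 4 of 11 thus belongs to the fit with all arrays. Which calls hold cannot be decided with 1 ELL2 cko array with LPS. The median genotype difference with LPS was then -1.82, and that of Derl3 was -2.95. Txndc5 then differed by -3.05 and Cd93 by -1.82.

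Among partners and activators of the factors, calls went in both directions. Of 16 measured, 4 rose and 1 fell with LPS in ELL2 cko, and 6 rose and 4 fell in WT; of all genes 6.37% rose and 3.99% fell in ELL2 cko, and 13.9% rose and 10.6% fell in WT. Ern1, which encodes the IRE1 nuclease that activates Xbp1 RNA, rose by 2.42 ± 0.51 in ELL2 cko and by 5.33 ± 0.47 in WT. It was lower in ELL2 cko with LPS (-2.73 ± 0.51, limma adjusted p = 0.00685), and the difference of the LPS changes was -2.92 (adjusted p = 0.0574). Batf, an AP-1 partner of Irf4, rose by 2.96 ± 0.50 in ELL2 cko, and Atf6, an ER stress factor, by 2.38 ± 0.34 in ELL2 cko and 3.11 ± 0.31 in WT. Pou2f1, an octamer factor that recruits Pou2af1, was lower in ELL2 cko with LPS (-0.88 ± 0.20, adjusted p = 0.0195). Ikzf3, which encodes Aiolos, fell by 3.96 ± 0.45 in WT. Mbtps1 and Mbtps2, whose proteases release CREB3-type factors from the membrane, were called in no comparison. Without the 4 arrays the LPS change in ELL2 cko was 3.59 for Ern1, 3.97 for Batf and 2.46 for Atf6. No genotype difference of the 16 with LPS was then called (Ern1 -2.14 and Pou2f1 -0.70).

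Relatives of Irf4 moved in both directions. Of 7 other IRF genes 2 rose and 1 fell in ELL2 cko, and 2 rose and 3 fell in WT. Of all genes 6.37% rose and 3.99% fell in ELL2 cko, and 13.9% rose and 10.6% fell in WT. Irf7, a factor of the interferon response, rose by 1.08 ± 0.27 in ELL2 cko and by 2.27 ± 0.25 in WT. Irf8 (2.03 ± 0.54, limma adjusted p = 0.0463) and Irf2 (0.89 ± 0.20, adjusted p = 0.0187) were higher in ELL2 cko with LPS, against 1.36% of all genes. Without the 4 arrays they differed by 1.37 and 0.96 and were not called, and the LPS change of Irf7 in ELL2 cko was 0.85, not called either. Of 4 other CREB3 genes, 0 were called in ELL2 cko by limma (0 at an unadjusted p under 0.05) and Creb3l1 rose by 0.65 ± 0.16 in WT; 0 of 4 differed between genotypes with LPS, with or without the 4 arrays (2 and 1 of 4 at an unadjusted p under 0.05).

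Over the 15 arrays the genes with the highest Pearson r to each factor were sought among 11415 genes, as a description in which the LPS change alone makes r high. Irf4 was most like Ell2 (r = 0.990), Eaf2, an ELL-associated factor (0.988), and Oosp1 (0.986). Bhlha15 was most like Fkbp11 (0.996), Spcs2-ps (0.996) and Sec24d (0.995), and Creb3l2 most like Fkbp11 (0.994), Sec24d (0.993) and Fndc3b (0.991). Prdm1 was most like an Ighv1 segment (0.992), Vegfa (0.992) and Dhrs1 (0.991), Xbp1 like an Igkv5 segment (0.998) and a pair of Ighv1 segments (0.995 each), and Pou2af1 like Manea (0.981) and a pair of Ighv1 segments (0.969 and 0.968). Variable segments of immunoglobulin genes are near-identical copies, so which segment a row measures is uncertain and only the family is given. Zbtb32 was most like Inf2 (0.974), Aldoc (0.970) and Adap1 (0.969). Among the factors themselves, r was 0.993 for Bhlha15 with Creb3l2 and between 0.66 and 0.83 for Zbtb32 with the other 6.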

How the data were processed

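Total RNA of 15 samples was measured on exon and junction arrays. The authors deposited 1 normalized log2 value per row and array; per the submitters' processing notes these come from Affymetrix Expression Console and RMA, whose versions are not given in the sources used here. Of 725678 rows, 437027 are exon regions and 282044 junctions; 580167 carry 1 gene symbol and 18694 several, and only rows with 1 symbol were used. GEO's platform annotation named them, with 1584 symbols updated to RefSeq. No 2 arrays were duplicates (at most 127 identical rows; Pearson's r 0.907 to 0.987).

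A gene value is the median of its exon regions. limma 3.58.1 (R 4.3.3) fitted group means to all 15 arrays; eBayes tests were two-sided and adjusted over 31265 genes, or over 571747 rows for the splicing index, which leaves out the only exon region of a gene. The number of arrays limits precision. Scripts were tested on simulated data. Members and lists were chosen with earlier results of these data known. Named were the 7 factors, Ell2, up to 3 called genes per list with the largest change, 3 most alike genes and up to 3 rows per factor; genes named as not called, Ciita, Cd22 and others without the 4 arrays and the Zbtb32 rank were added after their values were seen. Alternatives were other normalizations, filters, eBayes settings, gene means, only the groups compared, a replicate block and left-out arrays. Protein sequences and row positions were not used here.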

Additional observations from a re-analysis of the deposited data

Results flagged for a closer look

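The LPS change differed between the genotypes by a test of the difference itself for 4 of the 7 factors. Of all genes 1.19% were called lower by that test. In each the rise was smaller in ELL2 cko cells than in WT cells. The LPS change in ELL2 cko minus that in WT was -2.08 for Prdm1 (limma adjusted p = 0.0438), -2.62 for Xbp1 (adjusted p = 0.00722), -1.86 for Bhlha15 (adjusted p = 0.0310) and -3.66 for Creb3l2 (adjusted p = 0.0214). In the 21 groups of 4 arrays, 0 values lay apart from the rest of their group by Dixon's test. That test looks for a single value apart among 4, so a pair of odd arrays can pass. The groups of ELL2 cko cells with LPS, of 3 arrays, were not tested. With 1 array left out, the call held in 3 of 15 fits for Prdm1 and 15 of 15 for Xbp1. It held in 6 of 15 for Bhlha15 and 12 of 15 for Creb3l2. Without the 4 ELL2 cko arrays that carry markers of other cells, the difference was -1.26 for Prdm1 and -2.66 for Xbp1. For Bhlha15 it was then -1.65, and for Creb3l2 -3.01. That fit leaves 1 ELL2 cko array with LPS and cannot decide which calls hold.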

How the results depend on the processing

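The number of factors called with LPS in WT was 7 under all alternatives, and without LPS between genotypes 0 under all. With LPS in ELL2 cko it was 7 in every fit that leaves out 1 array, 6 with only the groups compared (Pou2af1 lost), and 4 with the 4 arrays that hold other-cell markers left out (below, without the 4 arrays). Between genotypes with LPS 5 were called, 6 with the filter on dim genes, 3 with only the groups compared (Prdm1, Irf4 and Bhlha15 lost, Pou2af1 gained), 0 without the 4 arrays, and 4 to 6 with 1 array left out. For the difference of the LPS changes 4 were called, 0 without the 4 arrays and 1 to 4 with 1 array left out; Prdm1 lost the call under quantile normalization (adjusted p = 0.0560) and median centring (0.0570). Whether the replicate numbers pair the samples is not known. For arrays with the same number, r of deviations was -0.25 to 0.23 over 21 pairs (7 over 0.1), and unlike numbers were not compared. With the numbers as a replicate block 3 were called for the difference, Prdm1 being lost (-2.13, limma adjusted p = 0.0691). Rows called by splicing index were 65 to 74 with 1 array left out for LPS in WT (70 with all), 22 to 40 for LPS in ELL2 cko (38 with all, 9 without the 4 arrays) and 0 to 13 between genotypes with LPS (7 with all, 3 with the replicate block, 0 without the 4 arrays). No called value changed sign; uncalled genotype differences without LPS did, as for Pou2af1 (-0.65, and 0.18 without the 4 arrays). Over all genes, calls between genotypes with LPS numbered 1458, against 444 with only the groups compared and 35 without the 4 arrays. For LPS in ELL2 cko they numbered 3238, against 2158 and 1309, and for the difference 432, against 0 without the 4 arrays and 622 with means of exon regions. The cause of these changes was not tested. Leaving out the 4 arrays changes both the number of arrays and the markers of other cells, which cannot be told apart here. The Bhlha15 exon region PSR0500016135.mm.1, at 2.06 to 2.61, lies at background, which limits what the gene value shows.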
